A study of Mus musculus with 32 samples.

Results

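Genes that mark the stem and progenitor cells at the base of the colonic crypt were examined in Lgr5-EGFP+ cells sorted from murine colonoids, which are epithelial organoids grown from colonic crypts. The 10 genes, Lgr5, Ascl2, Smoc2, Sox9, Cd44, Lrig1, Prom1, Ephb2, Ephb3 and Cdca7, were given by name. No rule on their values was used, although earlier results of these data were known when the list was drawn up. All 10 were found among the 23517 genes of the count table. Each gene was measured as unique molecular identifier (UMI) counts, in which repeated reads of a captured molecule are counted once, and all 10 passed the filter on low counts in both sets of mice described next.

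The crypts were isolated from proximal colon, and the mice were of the strain Lgr5-EGFP-IRES-CreERT2, with EGFP and a tamoxifen-inducible Cre in the Lgr5 locus. Colonoids were grown in Matrigel with L-WRN medium. Each of 8 mice gave an untreated (UT) culture and a culture kept for 4 days in 250 nM bethanechol (Bch), an agonist of muscarinic acetylcholine receptors, and each of these 16 cell samples was sequenced as 2 technical replicates, which makes 32 libraries. Mice BR1 to BR4 are labelled male, with sorted Lgr5+ cells as the source and the RNeasy Plus Micro kit. Mice BR7 to BR10 carry no sex label, and their labels name colonic organoids as the source and the RNeasy Mini kit. The series counts 4 female and 4 male mice, so BR7 to BR10 correspond to its 4 female mice, and sex, kit and labelled source cannot be told apart between the sets. Cells were selected by EGFP made from the Lgr5 locus in both treatments, so that every level below is a level within the sorted cells, and the zygosity of the reporter and the age of the mice are not given in the sources used here.

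Lgr5 encodes a receptor for R-spondins that strengthens Wnt signaling, and it marks the cycling stem cells of the crypt base. Ascl2 is a Wnt-responsive transcription factor needed for the stem cell state, Sox9 is a transcription factor of crypt base and progenitor cells, and Smoc2 is a secreted matrix protein enriched in Lgr5-expressing cells. Lrig1 restrains ErbB receptors, Ephb2 and Ephb3 are receptors for ephrin-B ligands that position cells along the crypt, Cd44 is a hyaluronan receptor and Wnt target, Prom1 (CD133) is a membrane protein of stem and progenitor cells, and Cdca7 is a nuclear protein of cycling cells.

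The stretch upstream of the transcription start is shown for Ascl2, the most abundant of the 10 genes, and for Ephb2. Both sequences were taken from RefSeq (GRCm38.p6), in which promoters of 7 of the 10 genes were matched, and Lgr5, Smoc2 and Sox9 were not among them. The lines give the 250 bases before the start on the minus strand, at chr7:142969265-142969514 for Ascl2 and at chr4:136836013-136836262 for Ephb2, and capitals mark CCAAT or its reverse complement ATTGG.
Ascl2: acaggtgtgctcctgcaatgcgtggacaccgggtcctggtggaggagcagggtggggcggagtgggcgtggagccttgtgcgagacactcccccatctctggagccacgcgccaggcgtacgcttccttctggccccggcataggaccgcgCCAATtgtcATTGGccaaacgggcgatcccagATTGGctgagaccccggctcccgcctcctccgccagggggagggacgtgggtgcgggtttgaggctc
Ephb2: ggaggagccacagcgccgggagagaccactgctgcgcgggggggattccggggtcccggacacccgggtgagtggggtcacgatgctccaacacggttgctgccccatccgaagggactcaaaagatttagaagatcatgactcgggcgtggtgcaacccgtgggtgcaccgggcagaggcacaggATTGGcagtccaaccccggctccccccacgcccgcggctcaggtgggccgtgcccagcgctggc
The Ascl2 window held 3 such matches and the Ephb2 window 1. Of the 7 matched genes, 4 held at least 1, also Lrig1 and Prom1 (in 1 of its 2 windows), and Cd44, Ephb3 and Cdca7 held 0, while 33.8% of 32851 promoter windows of this length hold at least 1. The TCF/LEF core CTTTGA, on either strand, was in none of the windows of the 7 matched genes and in 13.8% of all windows. The E-box CAGCTG was in the Ephb3 window and in 13% of all windows. Other forms of the TCF/LEF core were not searched. These matches describe letters in a window and do not show binding, and a window without a match is not shown to lack it.

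The number of sorted cells was 2361 to 3504 per sample apart from 13114 for untreated BR1, whose Bch-treated sample had 3504. The part of cell number in the Lgr5 values of BR1 was not tested. The 16 cell samples held 557512 (BR3, untreated) to 4050342 UMIs (BR8, Bch) after the technical replicates were summed. Mitochondrial genes took 3.9 to 7.52% of UMIs and ribosomal protein genes 13.8 to 17.9%. The summed level of 8 epithelial markers was 13200 to 15500 CPM (UMI counts of a gene relative to all UMIs of the sample, given as counts per 1000000) in every sample, whereas the summed levels of the listed markers of fibroblasts (3 of 8 in the table), immune cells (6 of 8) and endothelium (1 of 5) reached at most 8.45, 13.7 and 2.43 CPM. Xist was at 82 to 324 UMIs per sample in BR7 to BR10 and at 13 to 38 in BR1 to BR4, and the Y-linked Eif2s3y was at 6 to 20 and 31 to 166 UMIs, so that neither set was at 0 for the sex-linked gene of the other. The part of these reads in the results was not tested.

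Ascl2 was the most abundant of the 10 genes and Ephb3 the least. In untreated cells of all 8 mice, the mean level on the CPM scale was 315 ± 70.3 for Ascl2 (SD, n = 8 mice), where CPM are scaled between samples by the trimmed mean of M values (TMM). Smoc2 was at 119 ± 18.1, Sox9 at 107 ± 27.2 and Cdca7 at 88.2 ± 24.5 (SD, n = 8). Ascl2 exceeded Smoc2 in 8 of 8 untreated mice. Cd44 was at 53.4 ± 14.8, Prom1 at 48.7 ± 7.53 and Lrig1 at 40.0 ± 8.73 CPM (SD, n = 8). Ephb2 was at 28.2 ± 8.32, Lgr5 at 27.2 ± 9.34 and Ephb3 at 21.6 ± 7.22 (SD, n = 8). Most neighbors in this order lay within the spread between mice. Smoc2 exceeded Sox9 in 5 of 8 mice, Sox9 exceeded Cdca7 in 5, Cd44 exceeded Prom1 in 4, Ephb2 exceeded Lgr5 in 4 and Lgr5 exceeded Ephb3 in 4. Kept by more mice were Cdca7 above Cd44 in 7 of 8, Prom1 above Lrig1 in 7 and Lrig1 above Ephb2 in 6. Because each UMI stands for a molecule captured at its 3′ end, these levels were compared without dividing by gene length.

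**Figure D1:**
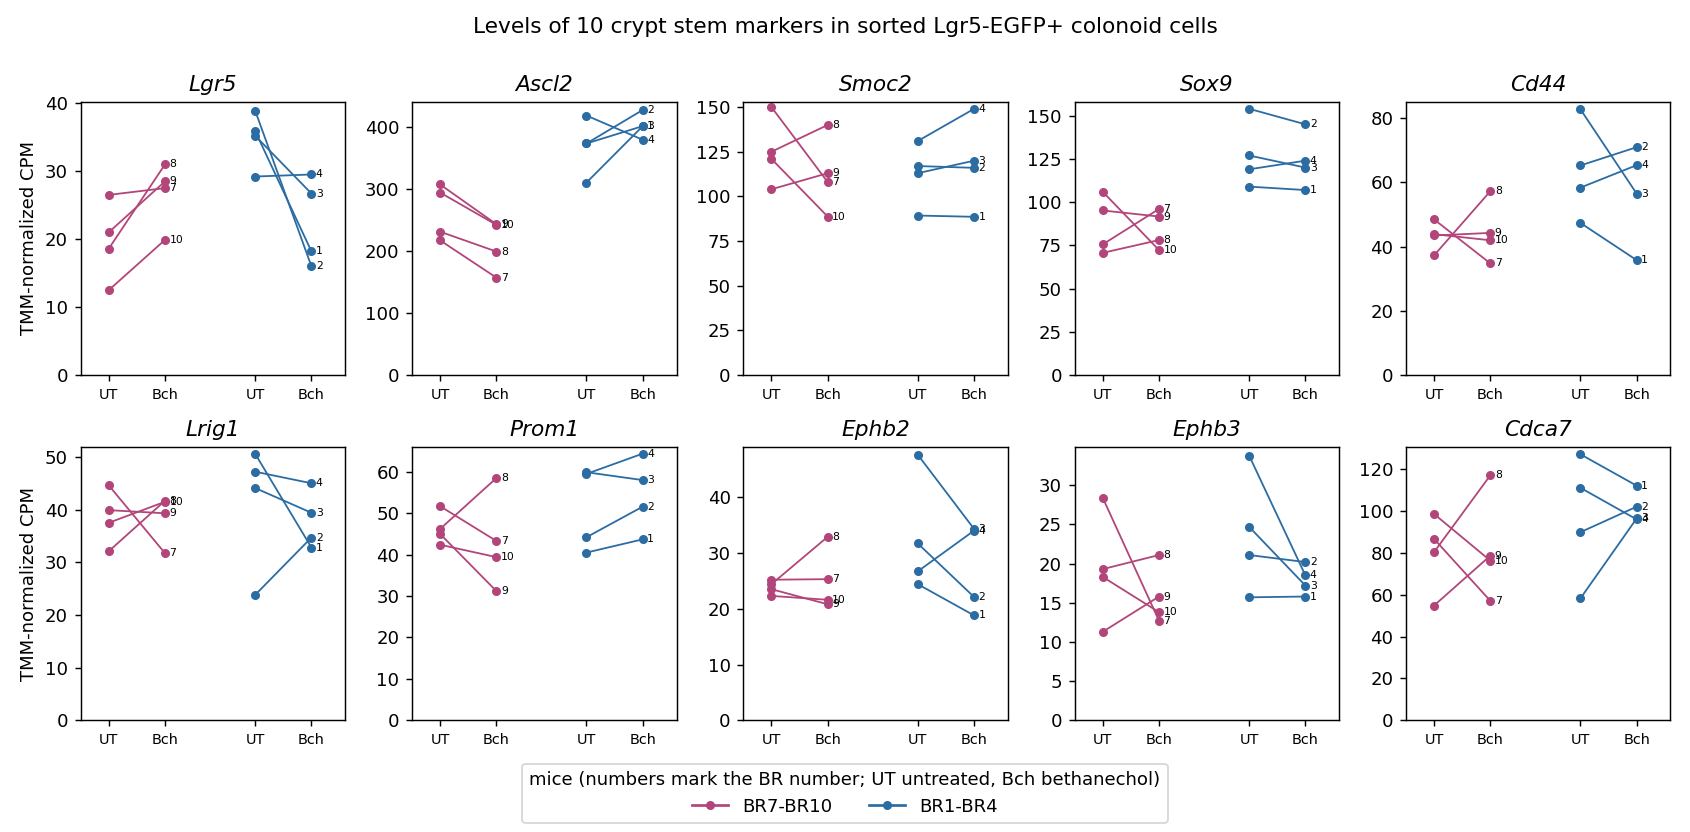
TMM-normalized CPM (y axis, linear, from 0) of the 10 genes in untreated (UT) and Bch-treated cells, with 1 line per mouse and the BR number at its right end, for BR7 to BR10 (pink) and BR1 to BR4 (blue). In BR7 to BR10 all 4 Ascl2 lines run downward and all 4 Lgr5 lines upward, and Bch-treated Ascl2 lies between 157 and 243 CPM there against 379 to 427 CPM in BR1 to BR4.

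Lgr5 (chr10:115450311-115587780, minus strand, GRCm38) was counted at 20 to 131 UMIs per sample. Untreated levels in BR7, BR8, BR9 and BR10 were 26.5, 18.6, 21.0 and 12.5 CPM, and with Bch they were 27.5, 31.0, 28.5 and 19.9 CPM. The level was higher with Bch in 4 of 4 of these mice, as for 5.84% of all genes tested there, with BR7 nearly level, and the untreated and treated ranges overlapped. Untreated levels in BR1, BR2, BR3 and BR4 were 35.9, 38.9, 35.2 and 29.2 CPM, and with Bch they were 18.2, 16.0, 26.7 and 29.5 CPM. The level was lower with Bch in BR1, BR2 and BR3 and nearly the same in BR4, and here too the ranges overlapped, by the values of BR4.

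By edgeR's quasi-likelihood test with the mouse as a block, the log2 fold change of Lgr5 with Bch was 0.49 (SE 0.24, 95% interval 0.01 to 0.97, adjusted p = 0.999) in BR7 to BR10. In BR1 to BR4 it was -0.66 (SE 0.23, interval -1.12 to -0.20, adjusted p = 0.358 by edgeR). Neither passed the threshold, an adjusted p under 0.05 over all genes tested. The value in BR1 to BR4 was -0.438 without BR2 and -0.921 without BR4. Within single mice, the 95% exact binomial interval of the ratio, which covers counting error only, lay above 0 in BR8 and BR10 and below 0 in BR1 and BR2. The lowest count, 20 UMIs in untreated BR3, had an exact Poisson interval of 12.2 to 30.9 UMIs. The ribosomal protein share of UMIs was higher with Bch in BR1 (14.8 and 16.2%), BR2 (13.8 and 17.1%) and BR3 (13.9 and 17.7%) and not in BR4 (17.9 and 17.7%), the order of the values being untreated and Bch. In the other set this share was higher with Bch in BR9 (14 and 14.2%) and BR10 (14.4 and 17.4%). It was lower in BR7 (17.1 and 16.2%) and BR8 (16 and 15.5%). Leaving mitochondrial and ribosomal protein genes out of the library size gave a fold change of Lgr5 of 0.494 in BR7 to BR10. In BR1 to BR4 that fit gave -0.658. The part of the ribosomal protein share in the Lgr5 values was not tested. Taken by technical replicate, Lgr5 was higher with Bch in 4 of 4 mice of BR7 to BR10 in both replicates, and in 2 of 4 mice of BR1 to BR4 in replicate 1 and 0 of 4 in replicate 2. In bulk samples fewer cells that express a gene and less RNA per cell cannot be told apart.

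Ascl2 (chr7:142966829-142969264, minus strand) was the gene with the smallest counting error, at 149 to 1118 UMIs per sample. Untreated levels in BR7, BR8, BR9 and BR10 were 217, 231, 307 and 294 CPM, and with Bch they were 157, 199, 243 and 242 CPM. All 4 mice were lower with Bch, as for 5.54% of all genes, each by more than counting error, while the untreated and treated ranges overlapped. Untreated levels in BR1, BR2, BR3 and BR4 were 373, 373, 310 and 418 CPM, and with Bch they were 401, 427, 401 and 379 CPM. Here 3 of 4 mice were higher with Bch, BR2 and BR3 by more than counting error, and BR4 was lower.

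The log2 fold change of Ascl2 with Bch was -0.32 in BR7 to BR10 (SE 0.13, 95% interval -0.59 to -0.05, adjusted p = 0.999 by edgeR). It was 0.12 in BR1 to BR4 (SE 0.09, interval -0.07 to 0.31, adjusted p = 0.852 by edgeR). Neither passed the threshold, and the value in BR1 to BR4 was 0.0536 without BR3 and 0.214 without BR4. Both technical replicates gave the same counts of mice, with 0 of 4 higher in BR7 to BR10 and 3 of 4 higher in BR1 to BR4.

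None of the 10 genes passed the threshold for Bch in either set, and DESeq2 called none of them in BR7 to BR10 (adjusted p = 1 for each). For BR1 to BR4, DESeq2 gave an adjusted p for Ascl2 only (0.82) and left that of the other 9 genes undefined, so that no call by DESeq2 can be read for them. In BR7 to BR10, 2 of 10 had an unadjusted p under 0.05 by edgeR (Lgr5 and Ascl2), against 3.78% of the 9515 genes tested, of which 0% passed after adjustment. In BR1 to BR4, 1 of 10 (Lgr5) had an unadjusted p under 0.05, against 7.72% of 9509 genes, of which 0.021% passed after adjustment. These counts rest on single mice. In BR7 to BR10 the count of 2 was 0 without BR8, without BR9 and after thinning, and 1 without BR7, without BR10, without the block, by DESeq2 and with either technical replicate alone, and that of BR1 to BR4 was 0 without BR1 and without BR2. The untreated and treated ranges of all 10 genes overlapped within each set, whereas they did not overlap for 2.15% of genes in BR7 to BR10 and 2.85% in BR1 to BR4. Lgr5 and Ascl2 alone of the 10 differed from untreated in 1 direction in all 4 mice of BR7 to BR10, and none of the 10 did in BR1 to BR4, against 8.22% of genes higher and 6.86% lower in all 4 mice there. The median log2 fold change over the 10 genes was -0.00672 in BR7 to BR10 and -0.061 in BR1 to BR4, beside -0.00224 and 0.00125 over all genes tested.

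**Figure D2:**
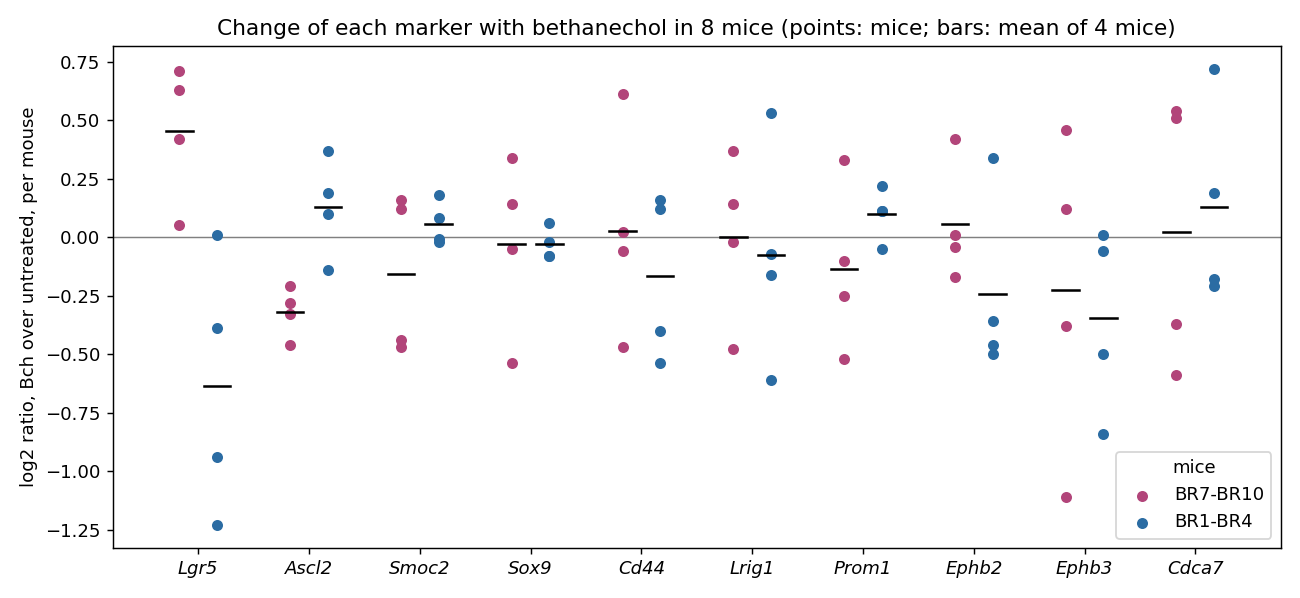
Log2 ratio of the Bch-treated over the untreated level (y axis) of each gene (x axis), with 1 point per mouse, bars at the mean of 4 mice, and BR7 to BR10 in pink beside BR1 to BR4 in blue. The points of the 2 sets do not overlap for Lgr5 (0.05 to 0.71 against -1.23 to 0.01) and Ascl2 (-0.46 to -0.21 against -0.14 to 0.37), and they overlap for the other 8 genes.

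The design also asks whether Bch acted differently in the sets. For Lgr5, the log2 ratios per mouse were 0.05, 0.71, 0.42 and 0.63 in BR7, BR8, BR9 and BR10. In BR1, BR2, BR3 and BR4 they were -0.94, -1.23, -0.39 and 0.01. Every ratio of BR7 to BR10 was therefore above every ratio of BR1 to BR4, by the narrow gap between BR7 and BR4. The mean ratios differed by 1.09. In edgeR's test of the difference over all genes, Lgr5 had a log2 difference of 1.15 (SE 0.32, 95% interval 0.50 to 1.80, adjusted p = 1) and ranked 5 of 10280 genes by p.

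For Ascl2 the ratios pointed the opposite way. They were -0.46, -0.21, -0.33 and -0.28 in BR7, BR8, BR9 and BR10, and 0.10, 0.19, 0.37 and -0.14 in BR1, BR2, BR3 and BR4. The ranges did not overlap, and the mean ratios differed by -0.45. A two-sided exact permutation test of the set labels gives p = 0.0286, the smallest of 70 assignments, for any gene whose 4 and 4 ratios do not overlap, so that for Lgr5 and Ascl2 it restates the ranges, and it was not adjusted over the 10 genes. The log2 difference by edgeR was -0.44 (SE 0.16, 95% interval -0.77 to -0.11, adjusted p = 1, rank 72). Thus 2 of 10 genes had ratios that did not overlap between the sets, against 2.82% of all genes, and the same 2 of 10 had an unadjusted p under 0.05, against 4.39%. No gene of the 10280 passed after adjustment by edgeR (0%), where 451 had an unadjusted p under 0.05. DESeq2, fitted without that filter on 23517 genes, called 0, with 242 at an unadjusted p under 0.05. The differences of the other 8 genes by edgeR ranged from -0.23 to 0.30.

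The Lgr5 and Ascl2 ratios were plotted against each other. All 4 mice of BR7 to BR10 had a positive Lgr5 and a negative Ascl2 ratio. BR1, BR2 and BR3 had the reverse, and BR4 lay near 0 for Lgr5 with a negative Ascl2 ratio, in the same quadrant as BR7 to BR10. Within BR7 to BR10 the order ran the other way, since BR8 had the highest ratio of both genes and BR7 the lowest of both. No pooled coefficient is given for the ratios, because the mice fell into 2 groups of 4.

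**Figure D3:**
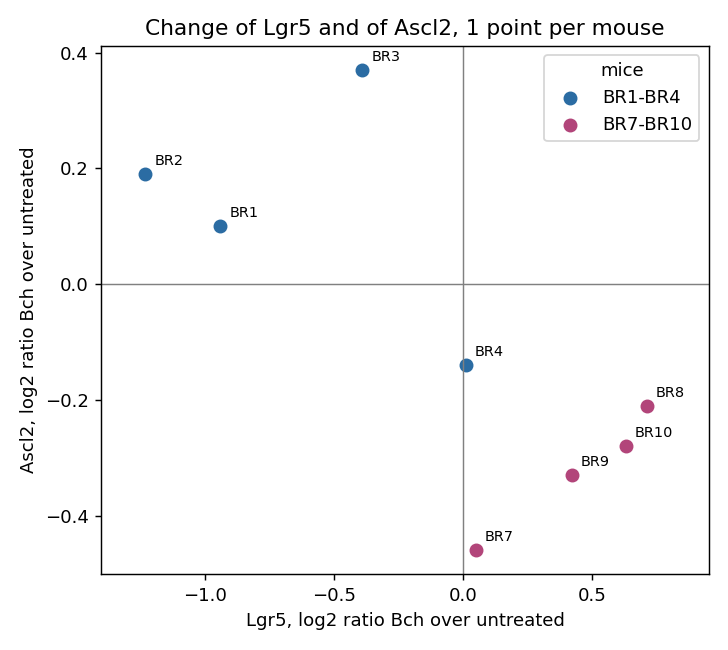
Log2 ratio of Bch-treated over untreated level for Lgr5 (x axis) and Ascl2 (y axis), 1 point per mouse, with gray lines at 0. BR7 to BR10 (pink) lie at the lower right, and BR1, BR2 and BR3 (blue) lie at the upper left, with BR4 at 0.01 for Lgr5 and -0.14 for Ascl2.

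Among the 2 other transcriptional and secreted markers, Smoc2 (chr17:14279506-14404790, plus strand) was at 104 to 150 CPM untreated and 88.7 to 140 CPM with Bch in BR7 to BR10, and at 89.3 to 131 and 88.6 to 149 CPM in BR1 to BR4. Its log2 fold change with Bch was -0.15 (SE 0.15) in BR7 to BR10 and 0.06 (SE 0.11) in BR1 to BR4. The first was -0.0339 without BR10, -0.0478 without BR7, -0.245 without BR9 and -0.257 without BR8, and the second 0.0113 without BR4. The value in BR7 to BR10 combined opposite mice, with ratios of -0.47 in BR7 and -0.44 in BR10 and of 0.16 in BR8 and 0.12 in BR9. Sox9 (chr11:112782224-112787760, plus strand) had log2 fold changes of -0.05 (SE 0.16) in BR7 to BR10 and -0.03 (SE 0.11) in BR1 to BR4. In BR1 to BR4 its ratios stayed between -0.08 and 0.06, the narrowest spread of the list in that set (SD 0.07), whereas in BR7 to BR10 they ran from -0.54 in BR10 to 0.34 in BR7. Neither gene was called in either set.

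The membrane proteins Cd44 (chr2:102811141-102901665, minus strand), Lrig1 (chr6:94604529-94700158, minus strand) and Prom1 (chr5:43993620-44102032, minus strand) also varied by mouse more than by treatment. The log2 fold change of Cd44 was 0.06 (SE 0.19) in BR7 to BR10 and -0.13 (SE 0.16) in BR1 to BR4, with single ratios from -0.54 in BR3 to 0.61 in BR8. That of Lrig1 was 0.03 (SE 0.19) and -0.09 (SE 0.19), with single ratios from -0.61 in BR1 to 0.53 in BR2. Prom1 had values of -0.12 (SE 0.19) and 0.11 (SE 0.16), and it was higher with Bch in 1 of 4 mice of BR7 to BR10 and 3 of 4 of BR1 to BR4. The ranges of the mice overlapped between the sets for all 3 genes. Lrig1 overlaps Slc25a26 on the opposite strand, which held 210 UMIs beside 1285 for Lrig1, and genes that overlap Cd44, Prom1 and Lgr5 held at most 21 UMIs each. Whether counting used the strand is not given in the sources used here.

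The Eph receptors had low counts. Ephb2 (chr4:136647539-136835988, minus strand) was at 22.3 to 25.2 CPM in untreated BR7 to BR10 and at 24.4 to 47.6 in untreated BR1 to BR4, and its log2 fold change with Bch was 0.06 (SE 0.23) and -0.23 (SE 0.21). It was lower with Bch in BR1, BR2 and BR3, with ratios of -0.36, -0.50 and -0.46, and higher in BR4, at 0.34, and its fold change there was -0.456 without BR4 and -0.129 without BR2. None of its 8 ratios exceeded counting error. Ephb3 (chr16:21204755-21223305, plus strand) was counted at 12 to 89 UMIs per sample, and its log2 fold change was -0.19 (SE 0.27) in BR7 to BR10 and -0.37 (SE 0.25) in BR1 to BR4. Its lowest ratio was -1.11 (BR7) in BR7 to BR10 and -0.84 (BR4) in BR1 to BR4, both by more than counting error. Its fold change in BR1 to BR4 was -0.0037 after all samples were thinned to the depth of the shallowest and -0.16 without BR4, and in BR7 to BR10 it was 0.0528 without BR7. Over the listed other Eph receptors and ephrins, 0 of 8 tested in BR7 to BR10 and 0 of 9 in BR1 to BR4 were called, with median log2 fold changes of 0.0948 and -0.216. Efna1, the most abundant ephrin listed, was at a mean of 150 CPM untreated and 162 CPM with Bch in BR7 to BR10 and at 106 and 107 CPM in BR1 to BR4.

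Cdca7 (chr2:72476159-72486893, plus strand) had mice beyond counting error in both directions within 1 set, unlike the other 9 genes. In BR7, BR8, BR9 and BR10 it was at 86.6, 80.3, 54.8 and 98.5 CPM untreated and at 57.0, 117, 78.6 and 76.2 CPM with Bch. It was thus higher in BR8 and BR9 and lower in BR7 and BR10, each by more than counting error, and its log2 fold change was 0.05 (SE 0.17, 95% interval -0.31 to 0.40). In BR1 to BR4 the log2 fold change was 0.06 (SE 0.13, interval -0.21 to 0.32), with a ratio of 0.72 in BR3, whose untreated sample was the shallowest. Of 14 proliferation genes listed, led in level by Birc5, Cdk1, Cenpa and Pcna, 0 were called in either set. With Bch 6 of the 14 were above 0 in BR7 to BR10 and 2 of 14 in BR1 to BR4, beside 4714 of 9515 and 4779 of 9509 genes. The medians of the 14 were -0.0119 and -0.0598, beside -0.00224 and 0.00125 over all genes. Fitted over all 8 mice, 13 of the 14 were below 0 (median -0.0724), beside 5000 of 10280 genes (median 0.00631), and 0 were called.

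Fitted over all 8 mice, none of the 10 genes was called, and none had an unadjusted p under 0.05, against 5.4% of all genes, of which 0% passed after adjustment. In this fit 9 of the 10 were below 0 (median -0.0437), beside 5000 of 10280 genes (median 0.00631). The log2 fold change was -0.09 (SE 0.19) for Lgr5 and -0.09 (SE 0.09) for Ascl2. With 1 mouse left out, Lgr5 ran from -0.213 (without BR8) to 0.0955 (without BR2) and Ascl2 from -0.156 (without BR3) to -0.0487 (without BR7). The value furthest from 0 was that of Ephb3, -0.28 (SE 0.18, 95% interval -0.65 to 0.09, adjusted p = 0.906 by edgeR), which was -0.0883 after thinning. No gene of the list differed in 1 direction in all 8 mice, against 0.574% of all genes that were higher and 0.409% that were lower in every mouse. Lgr5 was higher with Bch in 5 of 8 and Ascl2 in 3 of 8.

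The untreated sets themselves differed in some of the genes. Ascl2 was lower in untreated BR7 to BR10 than in untreated BR1 to BR4, at 262 ± 44.9 against 369 ± 44.4 CPM (SD, n = 4 each), and its ranges, 217 to 307 and 310 to 418 CPM, did not overlap. The log2 difference was -0.51 (SE 0.13, 95% interval -0.77 to -0.25, adjusted p = 0.0319 by edgeR), which passed the threshold. This call was 1 of 10, against 1.64% of the 9159 genes tested in either direction and 0.666% lower, and it was lost when any of BR1, BR2, BR4, BR7 or BR8 was left out (adjusted p up to 0.152).

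Lgr5 was at 19.7 ± 5.79 CPM in untreated BR7 to BR10 and 34.8 ± 4.07 in untreated BR1 to BR4 (SD, n = 4 each), again without overlap. Its log2 difference of -0.87 (SE 0.24, 95% interval -1.36 to -0.38) had an adjusted p of 0.0592 by edgeR and missed the threshold. Sox9 was at 75.6, 70.7, 95.2 and 106 CPM in untreated BR7, BR8, BR9 and BR10 and at 109, 154, 127 and 119 CPM in BR1, BR2, BR3 and BR4. These ranges were adjacent without overlap, and the log2 difference was -0.55 (SE 0.15, interval -0.86 to -0.23, adjusted p = 0.0608 by edgeR). Cd44 was at 48.5, 37.3, 43.5 and 43.9 CPM in BR7 to BR10 and at 47.4, 65.3, 82.8 and 58.4 in BR1 to BR4, with a log2 difference of -0.52 (SE 0.19, adjusted p = 0.193 by edgeR). Without overlap were thus 3 of 10 genes, against 8% of all genes, and 4 of 10 had an unadjusted p under 0.05, against 12.7%. The other 6 genes had log2 differences from -0.38 to 0.13, and 9 of 10 were below 0, with a median of -0.355 beside -0.0163 over all genes.

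With Bch the picture of levels by set differed between genes. Lgr5 overlapped between the sets, at 19.9 to 31.0 CPM in BR7 to BR10 and 16.0 to 29.5 CPM in BR1 to BR4. Ascl2 stayed apart, at 157 to 243 against 379 to 427 CPM, and so did Sox9, at 72.3 to 96.1 against 107 to 145 CPM. These were 2 of 10 genes, against 7.34% of 10280 genes whose Bch-treated levels did not overlap between the sets. The difference in response and the difference between untreated sets use the same untreated samples and are not independent.

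Other genes of the crypt base gave a mixed account of the same contrast. Of 28 listed, 27 were in the table and 22 were tested between the untreated sets, of which 16 were below 0 in BR7 to BR10 (median log2 difference -0.272), beside 4776 of all 9159 genes (median -0.0163). The 2 genes called of these 22 stand beside 1.64% of all genes. Axin2, a feedback inhibitor and target of Wnt signaling, was lower in BR7 to BR10 (-0.84, SE 0.22, adjusted p = 0.0472 by edgeR), and Aqp4, a water channel, was higher (1.21, SE 0.23, adjusted p = 0.00209 by edgeR). The most abundant were Phlda1, Hes1, Slc12a2 and Tgif1, with log2 differences of -0.21, 0.06, -0.22 and -0.34, none of them called. For Bch, 0 of 21 tested in BR7 to BR10 and 0 of 23 in BR1 to BR4 were called, 10 and 13 of them above 0. Among 7 tested genes of reserve or regenerating cells, Clu, a secreted chaperone, was lower in untreated BR7 to BR10 (-0.81, SE 0.20, adjusted p = 0.0449 by edgeR), 1 call of 7 beside 0.666% of all genes called lower, and 0 of 7 were called for Bch in either set.

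Colonocyte markers also differed between the untreated sets. Of 13 tested colonocyte genes, 12 were above 0 in BR7 to BR10, beside 4383 of all 9159 genes, and 3 passed the threshold, beside 0.972% of all genes called higher, namely Aqp8, Muc3 and Guca2b, with log2 differences of 1.81, 1.62 and 0.77. The summed level of the colonocyte list was 2450 to 3360 CPM in untreated BR7 to BR10 and 1930 to 2740 CPM in untreated BR1 to BR4. Of 10 goblet cell genes 0 were called (median 0.481, summed level 3590 to 9360 against 4490 to 6880 CPM), and of 8 tested enteroendocrine genes 0 were called (median 0.585, summed level 522 to 1080 against 305 to 495 CPM). Of 4 tested deep crypt secretory genes and 1 tested tuft cell gene 0 were called. The part of these cell types in the levels of the crypt base genes was not tested.

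**Figure D4:**
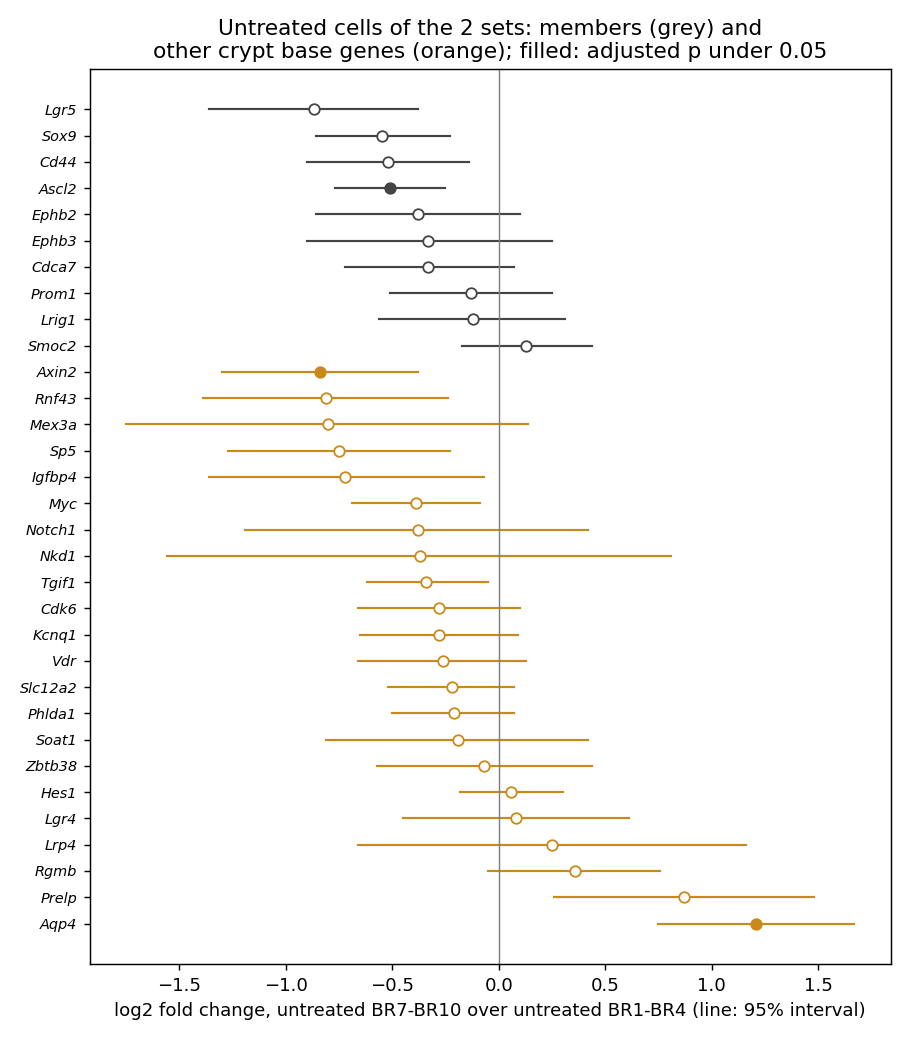
Log2 fold change of untreated BR7 to BR10 over untreated BR1 to BR4 (x axis) with its 95% interval (line) for the 10 genes (gray) and the other crypt base genes tested (orange), filled where the adjusted p is under 0.05. Filled points are Ascl2 (-0.51) and Axin2 (-0.84) to the left of 0 and Aqp4 (1.21) to the right, and 9 of the 10 genes lie to the left of 0.

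Among 5145 genes with a mean of at least 20 CPM, those with levels most like Lgr5 over the 16 samples, centered on the mean of each set, were Sec61a1 (Pearson r = 0.73), Dsg2 (0.73), Psme4 (0.71), Fos (0.70) and Epb41l4b (0.69). Fos is an immediate early gene that dissociation of tissue can induce, and its log2 fold change with Bch was 0.30 (SE 0.17) in BR7 to BR10 and -0.31 (SE 0.14) in BR1 to BR4, neither called. Of the dissociation genes listed, 0 of 9 tested in BR7 to BR10 and 0 of 7 in BR1 to BR4 were called. In BR7 to BR10, 5 of the 9 were above 0 (median 0.0933), beside 4714 of all 9515 genes (median -0.00224). In BR1 to BR4 all 7 were below 0 (median -0.234), beside 4730 of all 9509 genes (median 0.00125). Ier2, the most abundant of the list, was at -0.31 (SE 0.14) in BR7 to BR10 and -0.18 (SE 0.09) in BR1 to BR4. The part of the dissociation genes in the Lgr5 values was not tested. Genes most like Ascl2 were Taz (0.88), Nop56 (0.88), Rad9a (0.87), 2310061I04Rik (0.87) and Bnip1 (0.87). Among the 10 genes, the 45 pairwise values ran from -0.60 for Lgr5 with Ascl2 to 0.72 for Smoc2 with Prom1, with a median of 0.16. Levels were centered on set means only, so that Bch ratios that differed between the sets remain in these values and in those of the genes most like Lgr5 and Ascl2, and the value for Lgr5 with Ascl2 is not independent of their ratios given above. These are descriptions over 16 samples from 8 mice, in which the 2 genes of a pair share libraries and depth.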

How the data were processed

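Bulk RNA of sorted Lgr5-EGFP+ colonoid cells was analysed from 8 mice, untreated and with Bch, in 32 libraries. The authors deposited whole-number UMI counts per gene, made from oligo-dT primed cDNA with the Drop-seq pipeline (v1.0), GRCm38 and GENCODE M25, as the methods of the study state. The submitters' processing notes name GRCh38, a human build, for these mouse samples. Counts were not normalized. Of the genes, 1520 were blank in technical replicate 2 (at most 12 UMIs in replicate 1), and blanks were read as 0. Libraries held 267146 to 2119938 UMIs.

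Technical replicates were summed per mouse and treatment, so that n counts mice. Should both replicates hold copies of the same molecules, counting intervals would be too narrow. A count of 0 allowed up to 0.741 CPM in the deepest and 5.38 CPM in the shallowest sample (3 UMIs), for counting error only. In R 4.3.3, genes passing filterByExpr were TMM-normalized and tested with edgeR 4.0.16 (robust quasi-likelihood, mouse as a block and treatment as effect), with Benjamini-Hochberg adjustment over all genes and a threshold of 0.05. The interaction of set and treatment and the effect over all 8 mice were fitted on all 16 sums, and untreated sets were compared without a block, as a description. Ratios per mouse used a prior count of 2. DESeq2 1.42.0 was an alternative. Others covered the block, size factors, the filter, technical replicates, the genes in the library size, thinning to 557512 UMIs and leaving out each mouse.

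The pairing comes from the labels, which tie both samples to 1 mouse. Correlations of the pairs' deviations across genes were -0.0218 to 0.165 in BR7 to BR10 and 0.045 to 0.256 in BR1 to BR4. Coordinates are those of GENCODE on GRCm38, in an earlier release than the M25 of the counts. From that release, 65-base windows were taken in the last 400 bases of the protein-coding transcripts of the 10 genes. Of these windows, 0% were shared with another gene.

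The 10 genes and all lists were chosen with earlier results of these data known. Named genes were the 10, the 4 most abundant of a list at most, any called gene, and the 5 genes most like Lgr5 and Ascl2. The human samples were not analysed here.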

Additional observations from a re-analysis of the deposited data

Results flagged for a closer look

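The Bch response of Lgr5 differed between the sets by 1.09 in mean log2 ratio (BR7 to BR10 minus BR1 to BR4), with no overlap between the 4 and 4 mice. That of Ascl2 differed by -0.45, also without overlap. Neither difference passed edgeR's test over all genes (adjusted p = 1 for both), and set goes with sex, RNA kit and labelled source, which cannot be told apart. The gap between the sets rests on mice BR7 and BR4 for Lgr5 (0.05 and 0.01) and on BR8 and BR4 for Ascl2 (-0.21 and -0.14).

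For Ephb2, the log2 ratio of 0.34 in BR4 stood apart from those of BR1, BR2 and BR3 (-0.36, -0.50 and -0.46). It was the 1 value outside Dixon's limit among 60 groups of 4 levels or ratios, of which chance gives about 1 in 20.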

How the results depend on the processing

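Lgr5 and Ascl2 kept the direction of their Bch responses within each set and of the difference between the sets under every alternative that was fitted. With 1 mouse left out, Lgr5 lay between 0.406 and 0.618 in BR7 to BR10 and between -0.921 and -0.438 in BR1 to BR4, and Ascl2 between -0.348 and -0.269 and between 0.0536 and 0.214. The log2 difference in response ranged from 1.11 to 1.27 for Lgr5 and from -0.483 to -0.355 for Ascl2, and from 0.924 to 1.43 and from -0.514 to -0.354 with 1 mouse left out. The calls appeared with technical replicates taken as separate libraries, which counts 2 libraries of the same cells as independent. That fit called 2 of the 10 genes in BR7 to BR10 (Lgr5 0.523, Ascl2 -0.299), 1 in BR1 to BR4 (Lgr5 -0.649) and 2 for the difference, among 170, 338 and 221 genes, and 308 genes over all 8 mice. Without the replicate block, 0 of the 10 genes were called for Bch, Lgr5 was at 0.487 in BR7 to BR10 and -0.621 in BR1 to BR4, and 0 genes in place of 2 were called in BR1 to BR4. Removing the pairing moved no other count of calls by over 1.5 times.

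Between the untreated sets, 2 of the 10 genes were called without a filter, 3 with technical replicate 1 alone and 0 to 2 with 1 mouse left out. Ascl2 then lay between -0.591 and -0.434 (adjusted p 0.0146 to 0.152), Lgr5 between -1.05 and -0.67 (0.0329 to 0.208) and Sox9 between -0.663 and -0.432 (0.0189 to 0.325). Over all genes, counts were 234 without a filter, 96 after thinning and 74 to 210 with 1 mouse left out, in place of 150. For Bch in BR1 to BR4 they were 15 by DESeq2, 88 without a filter, 9 with replicate 1 alone and 0 to 19 with 1 mouse left out. In BR7 to BR10 they were 0 to 4 with 1 mouse left out. Without a filter, 1 gene was called for the difference and 15 over all 8 mice, where replicate 1 alone gave 1 and leaving out 1 mouse 0 to 1.

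For the other 8 genes, alternatives that kept all mice gave responses within the sets between -0.478 (Ephb3, BR1 to BR4, replicate 2 alone) and 0.26 (Prom1, BR1 to BR4, thinned), and values near 0 changed sign. In BR7 to BR10 Sox9 was at 0.0543 with replicate 1 alone and 0.0544 after thinning. With 1 mouse left out, Sox9 ran from -0.152 to 0.14, Cd44 from -0.141 to 0.196, Lrig1 from -0.0826 to 0.171, Prom1 from -0.286 to 0.008, Ephb2 from -0.0676 to 0.141, Ephb3 from -0.402 to 0.0528 and Cdca7 from -0.133 to 0.224. Smoc2 ran from -0.257 to -0.0339 there. In BR1 to BR4 Sox9 was at 0.064 with replicate 2 alone, and Cdca7 at -0.0166 with replicate 1 alone and -0.0498 after thinning. With 1 mouse left out there, Lrig1 ran from -0.29 to 0.108, Smoc2 from 0.0113 to 0.0915 and Ephb2 from -0.456 to -0.129. Cdca7 ran from -0.0707 to 0.164, Cd44 from -0.24 to -0.0109 and Sox9 from -0.0594 to -0.0045 there. Prom1 ran from 0.071 to 0.151 and Ephb3 from -0.49 to -0.16 in that set. In the fit over all 8 mice, leaving out 1 gave -0.213 to 0.0955 for Lgr5 and -0.156 to -0.0487 for Ascl2. The order of the genes by level was the same with DESeq2's size factors and with either technical replicate alone. The causes were not tested. For the untreated sets, technical replicates as separate libraries and a mouse block were not run, since each mouse belongs to 1 set. Low counts limit Ephb3, Lgr5, Lrig1 and Ephb2, which had 14, 20, 25 and 27 UMIs in the shallowest sample (BR3, untreated).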
